A study of Mus musculus with 8 samples.

Results

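The metalloproteinases that cut extracellular matrix and cell-surface proteins, and the TIMP proteins that inhibit them, were compared between GFP-positive cells of embryonic cortex and lung. The genes were those whose symbol on the array belongs to the matrix metalloproteinases (MMP), the ADAM, ADAMTS and ADAMTS-like families, or the tissue inhibitors Timp1 to Timp4. This gave 70 of the 18193 genes tested: 18 MMP, 28 ADAM, 15 ADAMTS, 5 ADAMTS-like and 4 TIMP genes. Where several probe sets named a gene and no other, the brightest on average over the 8 arrays stood for it. All embryos were homozygous for Tie2-GFP (Jackson strain 003658), a reporter in which the Tek (Tie2) promoter, active in endothelial cells, drives green fluorescent protein. They were taken at E13.5 and had no other allele or treatment named in the labels. For each sample, the 10 to 13 embryos of a litter were pooled and GFP-positive cells were sorted from 1 tissue. There were 4 arrays of cortex, freed of meninges and choroid plexus, and 4 of lung. Values are listed in the order of the sample numbers 72, 22, 19 and 18, which recur in both tissues, and log2 values are meant unless another unit is named.

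MMPs, ADAMs and ADAMTS enzymes are zinc proteases. MMPs degrade collagens and other matrix proteins, and some are anchored in the membrane. ADAMs are membrane proteins, many of which release the outer part of receptors, ligands and adhesion molecules, while ADAMTS enzymes are secreted and cut proteoglycans, procollagens and related proteins. ADAMTS-like proteins resemble ADAMTS enzymes without the protease domain. In growing vessels these proteins take part in sprouting, in remodelling of the basement membrane and in Notch and growth factor signalling.

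The description field of 4 samples, both tissues of numbers 19 and 18, names the other tissue, while the groups used here follow title, source name and tissue field. The neural marker list separated the arrays by those fields, with means of 10.88 to 11.42 in cortex and 6.51 to 6.87 in lung. Tek, whose promoter drives the reporter, lay between 10.73 and 12.41 in cortex and between 12.59 and 13.25 in lung. The arrays did not overlap, and the difference was -1.24 without a call (limma adjusted p = 0.0575). The mean of 26 pan-endothelial markers was 9.95, 11.27, 11.39 and 9.50 in cortex and 11.77, 11.82, 11.91 and 11.39 in lung. Lung 18 stood apart in RNA quality, with an actin 3′ minus 5′ signal of 0.99 (log2) against 0.36 to 0.55 on the other arrays. The array medians ran from 6.59 to 6.72, and precision is limited by having 4 arrays per tissue.

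Cortex and lung differed in which of these genes were higher. The secreted gelatinase Mmp2, Adam12, Adamts1, Adamts9 and the inhibitor Timp1 were higher in lung by 3.90-fold to 15.9-fold. Adamts3, Adam22, Adamtsl2, the gelatinase Mmp9 and the membrane-type Mmp17 were higher in cortex by 2.47-fold to 14.5-fold. At an adjusted p under 0.05 in limma, 14 of 70 members were called, beside 18.1% of all genes. Of these, 6 were higher in cortex (10.4% of all genes) and 8 in lung (7.71% of all genes). Called members at least 2-fold apart numbered 5 in each direction, beside 7.89% of all genes for cortex and 4.95% for lung. Giving cortex first and lung second, the family counts were 2 and 2 of 18 MMPs, 1 and 2 of 28 ADAMs, 1 and 3 of 15 ADAMTS, 2 and 0 of 5 ADAMTS-like genes and 0 and 1 of 4 TIMPs. At an unadjusted p under 0.05 in limma, the ADAMTS-like count for lung was 1 and the TIMP count for cortex 0. The median difference, cortex minus lung in log2 units, was -0.23 over the members and -0.09 over all genes. Since each sample is a mixture of sorted cells, fewer cells of a type and less RNA per cell cannot be told apart.

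**Figure D1:**
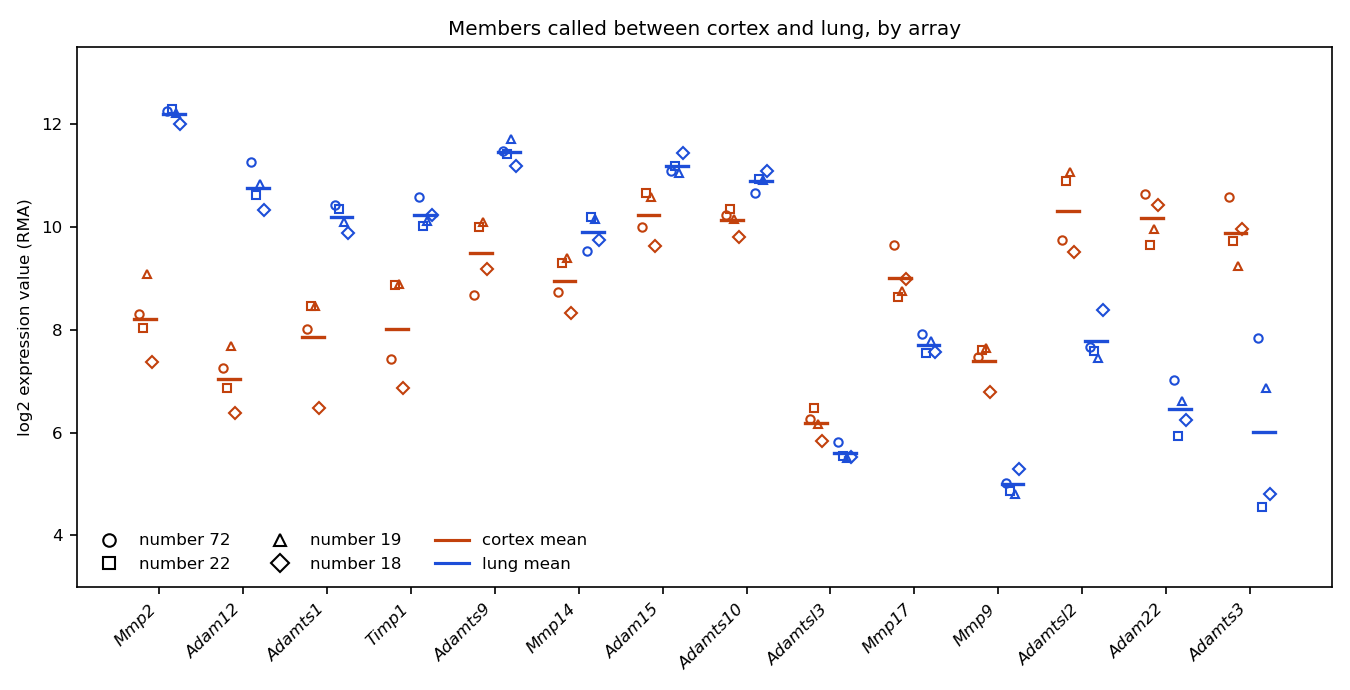
Log2 expression value of the 14 called members on each array, with the mean of each tissue as a line and the sample number shown by the marker shape. The arrays of cortex and lung do not overlap for any of the 14 genes, and Mmp2 in lung lies between 12.00 and 12.30.

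The gelatinases differed in opposite directions. Mmp2 (gelatinase A), which degrades type IV and denatured collagen, measured 8.31, 8.04, 9.07 and 7.37 in cortex and 12.26, 12.30, 12.22 and 12.00 in lung. Every lung array was above every cortex array, and the lung arrays lay within a far narrower range. The difference was -3.99 (SE 0.32, 95% CI -4.72 to -3.27), 15.9-fold higher in lung, with a limma adjusted p of 6.48e-05. The other probe set of Mmp2 gave -4.31. Mmp9 (gelatinase B), which shares these substrates, measured 7.47, 7.61, 7.65 and 6.80 in cortex and 5.01, 4.86, 4.80 and 5.30 in lung. All cortex arrays were above all lung arrays, and cortex 18 was the lowest of its tissue. The difference was 2.39 (SE 0.22), 5.25-fold higher in cortex, with a limma adjusted p of 0.000145, and its other probe set gave 0.75. Microglia are a known source of Mmp9, and the mean of 15 microglia and macrophage markers was also lowest on cortex 18, at 5.58 against 7.80 to 8.47 on the other cortex arrays. In lung it was 5.20 to 6.28. Of the 15 markers, 5 were called higher in cortex and 10 were not called. Csf1r, a defining receptor of these cells, measured 11.31, 10.63, 11.18 and 6.89 in cortex and 4.57 to 7.18 in lung. The pan-endothelial mean was lowest on cortex 18 as well, at 9.50, and Mmp9 had the same order of cortex arrays as that list. On cortex 18 the microglia and macrophage mean lay within the lung range, while Mmp9 (6.80) lay above all lung arrays. The part of microglia, macrophages or endothelial cells in the Mmp9 difference was not tested.

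Among membrane-anchored MMPs, Mmp17 and Mmp14 differed in opposite directions. Mmp17 (MT4-MMP), held in the membrane by a lipid anchor, measured 9.65, 8.64, 8.75 and 8.98 in cortex and 7.91, 7.55, 7.78 and 7.57 in lung. No array of one tissue reached the range of the other. Mmp17 was 2.47-fold higher in cortex, a difference of 1.30 (SE 0.23, limma adjusted p = 0.00503). Mmp14 (MT1-MMP), a collagenase that also activates the Mmp2 proenzyme, measured 8.74, 9.29, 9.39 and 8.33 in cortex and 9.54, 10.19, 10.15 and 9.75 in lung. The ranges were separated by a small gap, between cortex 19 and lung 72. Mmp14 was 1.95-fold higher in lung (difference -0.97, SE 0.27, limma adjusted p = 0.0389). The call was lost without any of 5 single arrays (cortex 72 or 18, lung 22, 19 or 18), with differences of -0.76 to -1.12 over all 8 omissions, and its 2 other probe sets gave -0.71 and -0.73 without a call.

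Of the remaining 14 MMPs, 0 were called in limma, and 0 had an unadjusted p under 0.05. These include 4 collagenases, 4 stromelysins and matrilysin, the membrane-type Mmp16 and Mmp24, and 4 others, with mean differences all below 0, from -0.78 to -0.02. Control probe sets for the bacterial transcripts dap, lys, phe and thr ranged from 3.17 to 4.82, and 10 of the 70 members lay at or under 4.82 on all arrays. Among the 20 members with a mean under 5, 0 were called in limma (3 at an unadjusted p under 0.05), and all 14 calls fell among the 50 members above it.

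Of the 4 inhibitors, Timp1 was the one called. Timp1, a secreted inhibitor of many MMPs, measured 7.44, 8.86, 8.89 and 6.87 in cortex and 10.58, 10.02, 10.12 and 10.22 in lung. Cortex 22 and 19 were higher than cortex 72 and 18, and all lay under the lung arrays. The difference was -2.22 (SE 0.45), 4.67-fold higher in lung, with a limma adjusted p of 0.0102. Timp3, which binds to matrix and also inhibits several ADAMs, measured 8.45, 9.43, 10.10 and 8.42 in cortex and 10.62, 10.64, 11.11 and 9.13 in lung. Lung 18 lay within the cortex range. The difference of -1.27 had an adjusted p of 0.124 in limma, but 2 of its other probe sets were called, at -1.42 and -1.67. Timp2, which takes part in Mmp2 activation with Mmp14, measured 10.83, 10.29, 9.77 and 10.63 in cortex and 10.90, 10.62, 11.06 and 9.44 in lung. The tissues overlapped, with a difference of -0.12 (95% CI -0.99 to 0.74, limma adjusted p = 0.844). Of the other Timp2 probe sets, the lowest gave -0.89 (limma adjusted p over all probe sets = 0.0613). The rest gave -0.23 to 0.0025, also without a call. Timp4 measured 5.44, 5.06, 5.38 and 5.33 in cortex and 5.65, 5.21, 5.28 and 5.37 in lung, again overlapping, with a difference of -0.07 (95% CI -0.42 to 0.27, limma adjusted p = 0.764).

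Among ADAMs, Adam22 and Adam12 showed differences of nearly the same size in opposite directions. Adam22, a catalytically inactive ADAM that serves as a receptor for LGI proteins at neuronal membranes, measured 10.65, 9.64, 9.96 and 10.43 in cortex and 7.02, 5.93, 6.60 and 6.25 in lung. The ranges were far apart, and cortex 72 and 18 were the highest. Adam22 was 13.2-fold higher in cortex, a difference of 3.72 (SE 0.29, limma adjusted p = 6.2e-05). A dimmer probe set of the same gene gave 0.12 without a call. Adam12, a sheddase known from mesenchymal and muscle precursor cells, measured 7.25, 6.86, 7.69 and 6.38 in cortex and 11.26, 10.62, 10.84 and 10.33 in lung. Every lung array lay above all cortex arrays. Adam12 was 13.1-fold higher in lung (difference -3.72, SE 0.31, limma adjusted p = 7.85e-05), and its other probe set gave -3.41. Adam15, an ADAM of endothelial junctions, measured 10.01, 10.67, 10.59 and 9.64 in cortex and 11.08, 11.19, 11.04 and 11.43 in lung. The lowest lung array exceeded the highest cortex array by a small margin. Adam15 was 1.95-fold higher in lung (difference -0.96, SE 0.24, limma adjusted p = 0.0264). Its call was lost without cortex 72 or without lung 22, 19 or 18. Its other probe sets gave -1.48 and -1.07, both called, and -1.23 without a call.

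The sheddases best known from vessels and Notch signalling were not called. Adam10, which makes the ligand-dependent cut in Notch receptors, ranged from 11.51 to 12.53 in cortex and 11.91 to 12.44 in lung (difference -0.16, 95% CI -0.75 to 0.44, limma adjusted p = 0.71). Adam17, the sheddase of tumour necrosis factor and of several growth factors, differed by -0.52 (95% CI -1.26 to 0.23, limma adjusted p = 0.321). Adam9 differed by 0.27 (limma adjusted p = 0.707). Over the 10 ADAMs listed as of broad or vascular shedding, 0 were called higher in cortex and 2 in lung, with a median of -0.47 (at an unadjusted p under 0.05 in limma, 0 and 3). That list includes Adam1b (-0.46, limma adjusted p = 0.28), although its neighbour gene Adam1a was listed with the ADAMs of the reproductive tract. The 3 non-catalytic neural ADAMs all had higher means in cortex, and Adam22 was the one called on its chosen probe set. Adam11 differed by 0.58 (limma adjusted p = 0.106) and Adam23 by 1.10 (limma adjusted p = 0.242), and each had another probe set that was called, at 0.62 and 1.04, while the remaining one of Adam23 gave -0.54.

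**Figure D2:**
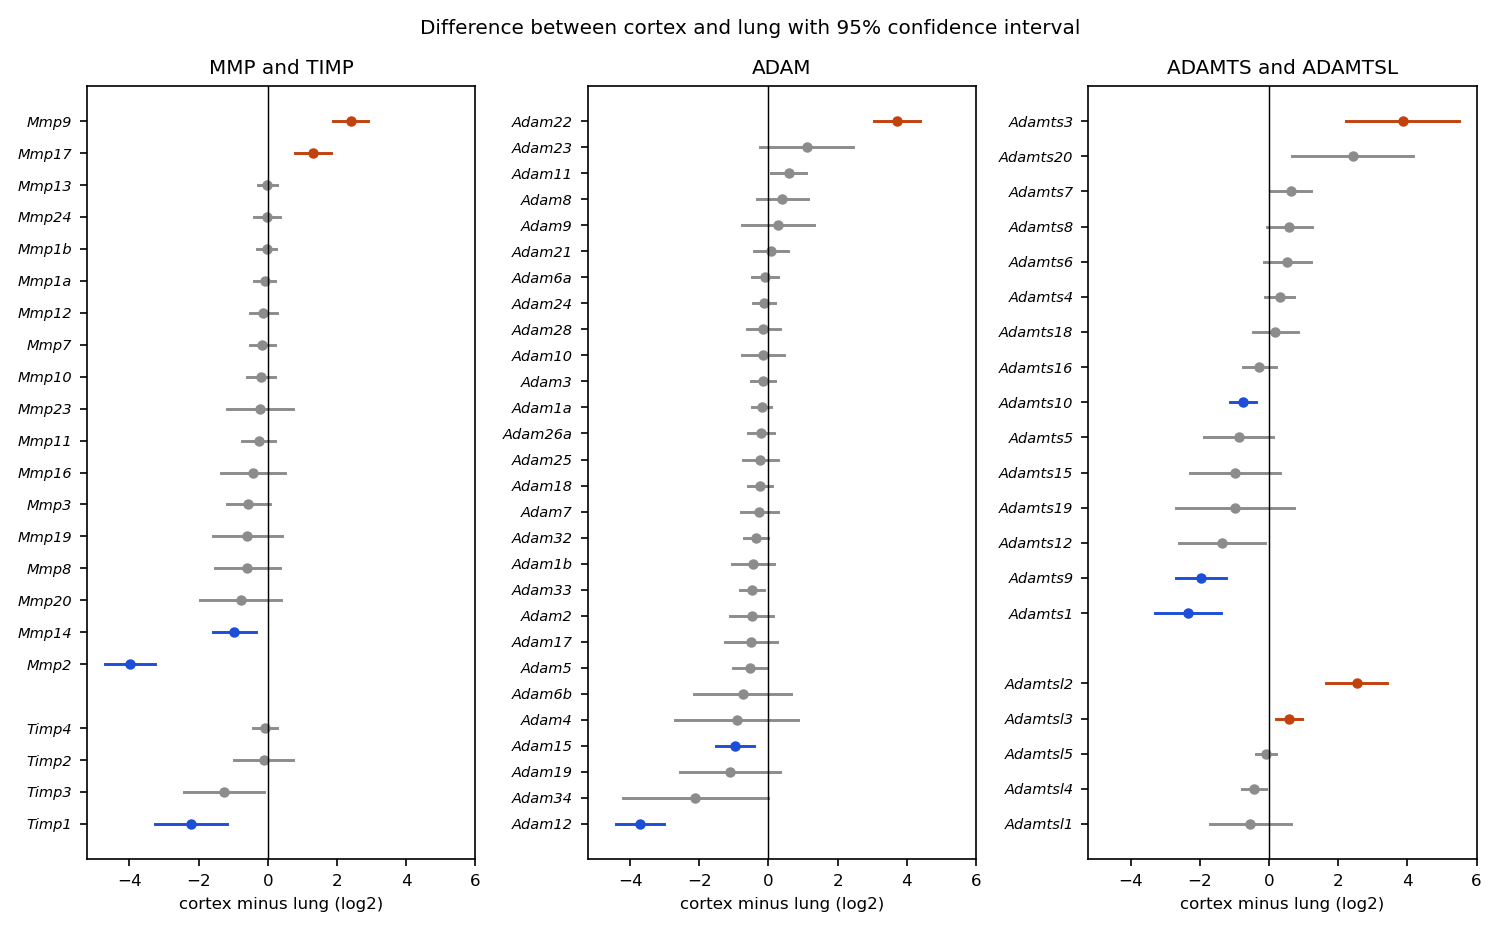
Cortex minus lung (log2) of all 70 members with the 95% confidence interval of the limma fit, grouped by family. Most intervals cross 0, and the outermost members are Mmp2 at -3.99 and Adamts3 at 3.86. Shifting the arrays to equal pan-endothelial means moves all points up, and 45 of the 70 turn sign, among them the called Adam15, Adamts10 and Mmp14.

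In the ADAMTS family the procollagen N-proteinase Adamts3 was higher in cortex and 3 members were higher in lung. Adamts3, which also cuts VEGF-C and reelin, measured 10.58, 9.72, 9.25 and 9.96 in cortex and 7.83, 4.54, 6.87 and 4.81 in lung. The lung arrays were widely spread, with 72 and 19 well above 22 and 18, yet all lay under the cortex arrays. Adamts3 was 14.5-fold higher in cortex (difference 3.86, SE 0.72, 95% CI 2.23 to 5.49, limma adjusted p = 0.00648). A dim second probe set, with means of 4.27 and 4.40, gave -0.13. Adamts1, an aggrecan and versican protease with antiangiogenic activity, measured 8.01, 8.46, 8.46 and 6.48 in cortex and 10.42, 10.35, 10.10 and 9.88 in lung. Cortex 18 was the lowest array, and the tissues did not overlap. Adamts1 was 5.05-fold higher in lung (difference -2.34, SE 0.42, limma adjusted p = 0.00552). Adamts9, a versican protease, measured 8.67, 10.00, 10.10 and 9.18 in cortex and 11.48, 11.42, 11.71 and 11.19 in lung. It was 3.90-fold higher in lung without overlap of the arrays (difference -1.96, SE 0.32, limma adjusted p = 0.00323), and its 2 other probe sets gave -1.89 and -1.61. Adamts10, a binder of fibrillin microfibrils, measured 10.24, 10.35, 10.15 and 9.81 in cortex and 10.67, 10.93, 10.91 and 11.09 in lung. It was 1.69-fold higher in lung (difference -0.76, limma adjusted p = 0.013).

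Other ADAMTS enzymes missed the threshold. Adamts12 differed by -1.35 (95% CI -2.60 to -0.11, limma adjusted p = 0.128) and Adamts18 by 0.18 (limma adjusted p = 0.693). Adamts20, chosen after its values were seen, measured 8.89, 6.89, 6.84 and 8.27 in cortex and 7.45, 4.04, 5.23 and 4.50 in lung. Lung 72 lay within the cortex range, and the difference of 2.42 had a limma adjusted p of 0.0634. Among the 7 proteoglycanases, 0 were called higher in cortex and 2 in lung, with a median of -0.88 (at an unadjusted p under 0.05 in limma, 1 and 2).

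The ADAMTS-like genes called were both higher in cortex. Adamtsl2, which binds fibrillin and the TGF-beta binding protein LTBP1, measured 9.75, 10.89, 11.06 and 9.50 in cortex and 7.66, 7.59, 7.45 and 8.38 in lung. Cortex 19 and 22 were the highest arrays, and lung 18 the highest of its tissue. Adamtsl2 was 5.78-fold higher in cortex (difference 2.53, SE 0.39, limma adjusted p = 0.00245). Adamtsl3 measured 6.27, 6.47, 6.16 and 5.83 in cortex and 5.82, 5.55, 5.51 and 5.52 in lung. Cortex 18 and lung 72 nearly touched. Its difference of 0.58 was 1.5-fold (limma adjusted p = 0.0429), and the call was lost in 6 of the 8 fits that left out 1 array (cortex 72, 22 or 19, lung 22, 19 or 18).

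For 41 of the 70 members, and 9 of the 14 called, RefSeq's mouse promoter table (GRCm38.p6) gave a window around the gene's start. Sequence upstream of the annotated start was used, up to 250 bases, where that sequence lay outside the gene. It is shown for 3 members higher in lung and, as a contrast, for Adamtsl2, higher in cortex. Capitals mark matches, on either strand, to the GC box that SP family factors bind, spelled GGGCGG, and to the TATA box, spelled TATAAA. The windows lie at chr16:85803114-85803363 on the minus strand (Adamts1), chrX:20869916-20870165 (Timp1), chr14:54431348-54431597 (Mmp14) and chr2:27079129-27079335 (Adamtsl2), the last 3 on the plus strand.
Adamts1: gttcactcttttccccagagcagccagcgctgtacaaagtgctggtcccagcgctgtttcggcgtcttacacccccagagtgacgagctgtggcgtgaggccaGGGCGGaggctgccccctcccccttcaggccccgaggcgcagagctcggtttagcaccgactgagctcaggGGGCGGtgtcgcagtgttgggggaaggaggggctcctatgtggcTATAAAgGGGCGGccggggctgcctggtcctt
Timp1: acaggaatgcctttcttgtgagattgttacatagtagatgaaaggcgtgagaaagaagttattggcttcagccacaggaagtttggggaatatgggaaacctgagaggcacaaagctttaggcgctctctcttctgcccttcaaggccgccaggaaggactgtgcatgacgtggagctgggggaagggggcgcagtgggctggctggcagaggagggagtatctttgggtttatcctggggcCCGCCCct
Mmp14: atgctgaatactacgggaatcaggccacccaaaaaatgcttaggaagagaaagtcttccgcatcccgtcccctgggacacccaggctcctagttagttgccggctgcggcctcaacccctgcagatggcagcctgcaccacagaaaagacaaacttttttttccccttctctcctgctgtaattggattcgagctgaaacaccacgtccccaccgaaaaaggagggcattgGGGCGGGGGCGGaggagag
Adamtsl2: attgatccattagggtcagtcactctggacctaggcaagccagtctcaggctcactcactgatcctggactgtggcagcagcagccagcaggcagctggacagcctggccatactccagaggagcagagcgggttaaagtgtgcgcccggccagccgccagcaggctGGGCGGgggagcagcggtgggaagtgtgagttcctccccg
Adamts1 held 3 GC boxes and a TATA box, Mmp14 held 2 adjoining GC boxes, and Timp1 and Adamtsl2 held 1 each. A GC box is present in 32.7% of all 32851 RefSeq windows cut to 250 bases and in 26.0% of those cut to 207 bases, the length used for Adamtsl2. A TATA box is present in 12.4% at 250 bases. None of these windows held AP-1 (TGANTCA), ETS (CCGGAAG) or TCF/LEF (ATCAAAG) letters, found in 6.75%, 6.91% and 3.21% of windows of 250 bases. Adam15's window, not shown, held 1 ETS and 1 GC box match, and the 98 bases available for Adam22, also not shown, held no match to the 5 motifs. A match is a description of letters only.

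The order of the arrays within each tissue was compared between members and cell type marker lists. The pan-endothelial order in cortex was more frequent among members than among all genes. The neural order in cortex, and the order shared by marker lists in lung, were less frequent among members than among all genes. Whether these shares differ by more than chance was not tested. In cortex, 8 members had the same order of arrays as the pan-endothelial list, from 19 down through 22 and 72 to 18, beside 5.98% of all genes. Of these, 4 were called, Adamtsl2 and Mmp9 (higher in cortex) and Mmp14 and Timp1 (higher in lung). The order of the neural list, from 18 down through 72 and 22 to 19, was that of 0 members, beside 4.91% of all genes. By a looser pattern, the called Adam22, Mmp17 and Adamts3 were higher on cortex 72 and 18 than on 22 and 19. Members without a call shared it too. Among them were Adamts5, Timp2 and Adam28, with higher means in lung, and Adam11, Adamts7 and Adamts20, with higher means in cortex. How many of all genes share that pattern was not counted. The neural list, with 24 of 24 measured markers called higher in cortex, had means of 11.39, 11.21, 10.88 and 11.42 in cortex, and Tubb3 was 13.13, 12.40, 12.23 and 13.04. In lung, 7 members, of which Adam12 was called, had the order of arrays 72, 19, 22 and 18, from high to low, beside 15.0% of all genes. That order was shared by 4 marker lists (fibroblast and mesenchyme, pericyte and smooth muscle, microglia and macrophage, lung epithelium) and is the reverse of that of the bioB control. For the fibroblast and mesenchyme list the lung means were 9.0, 7.78, 8.33 and 7.07, against 6.0 to 6.33 in cortex. Of that list, 11 of 16 were called higher in lung, and Pdgfra measured 9.89, 7.73, 9.25 and 6.59 there. Mmp2 in lung stayed between 12.00 and 12.30 over these arrays. The part of these cells in the differences was not tested.

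**Figure D3:**
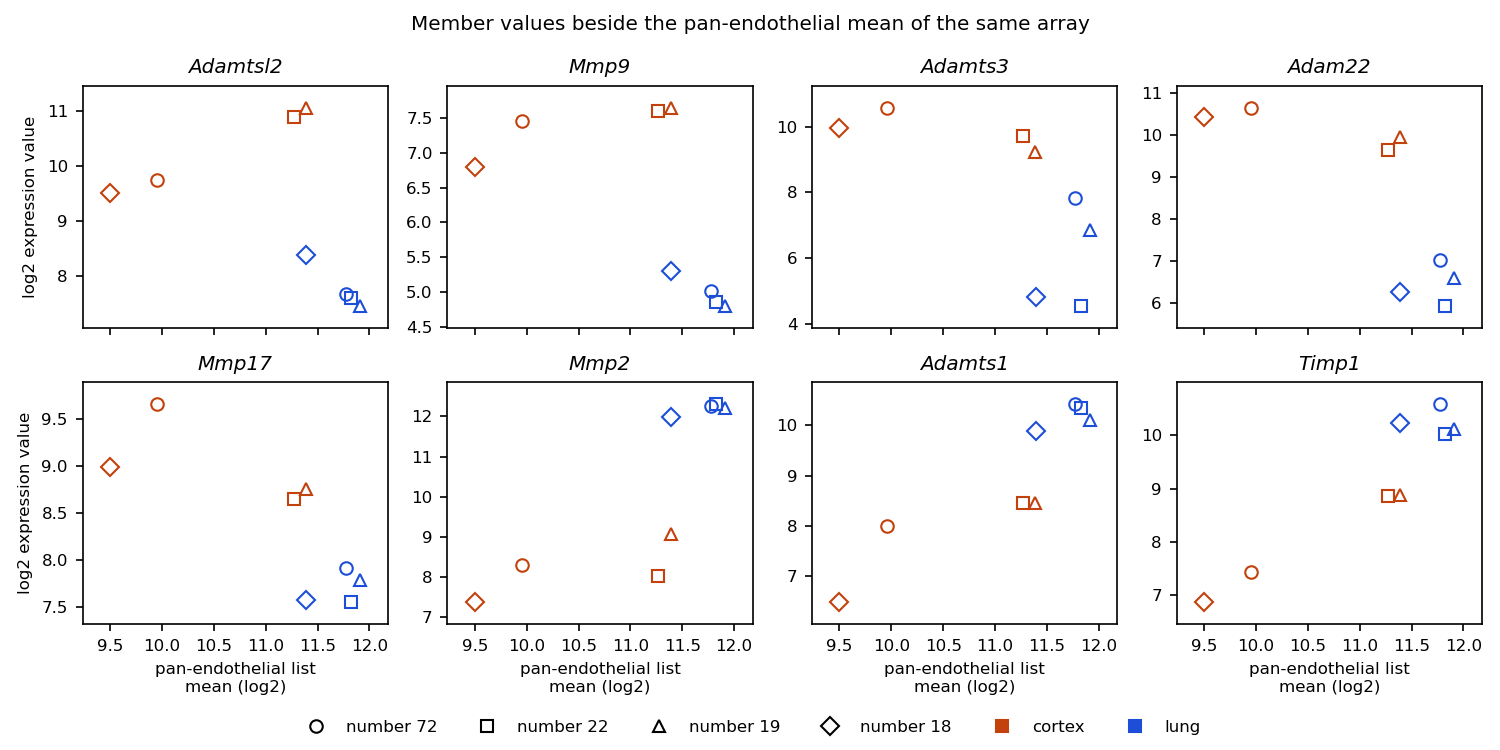
Log2 value of members against the mean of the 26 pan-endothelial markers of the same array, by tissue colour and by sample number. In cortex the list mean runs from 9.50 to 11.39 and in lung from 11.39 to 11.91, and Adamtsl2 in cortex is highest on the arrays with the highest list means.

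When arrays were shifted so that their pan-endothelial means became equal, the median of all genes moved to 1.11 and the calls over all genes to 27.1% higher in cortex and 0.792% in lung. Over the members, 15 were then called higher in cortex and 2 in lung (Adam12 and Mmp2). Adamts1, Adamts9 and Timp1 kept a negative difference without a call, while Adam15, Adamts10 and Mmp14 turned to 0.24, 0.44 and 0.23. Relative to the median of all genes, the family medians under this scaling were -0.13 for MMPs, -0.15 for ADAMs, -0.20 for ADAMTS, -0.01 for ADAMTS-like genes and -0.61 for TIMPs.

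The ADAMs known from the reproductive tract, where several serve sperm and egg contact, were a check on low values. Adam1b was listed with the ADAMs of broad or vascular shedding and is not counted here. Of 15 measured, 0 were called in limma (3 at an unadjusted p under 0.05, all lower in cortex) and 14 had a lower mean in cortex, with a median of -0.25. Adam34, chosen after its values were seen, measured 4.48, 5.0, 5.01 and 5.05 in cortex and 4.61, 8.29, 5.80 and 9.30 in lung. Lung 18 and 22 were high and lung 72 was within the cortex range (difference -2.11, limma adjusted p = 0.157). On lung 18, 13 of the 15 had their highest lung value, beside 33 of 70 members and 29.2% of all genes. The order of the 4 lung arrays matched that of bioB, a bacterial hybridisation control added at a low level, in 6 of the 15, beside 7.70% of all genes, and in 14 of all 70 members, of which Adamts10 was called. The bioB means were 7.30, 8.63, 7.80 and 8.95 in lung.

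**Figure D4:**
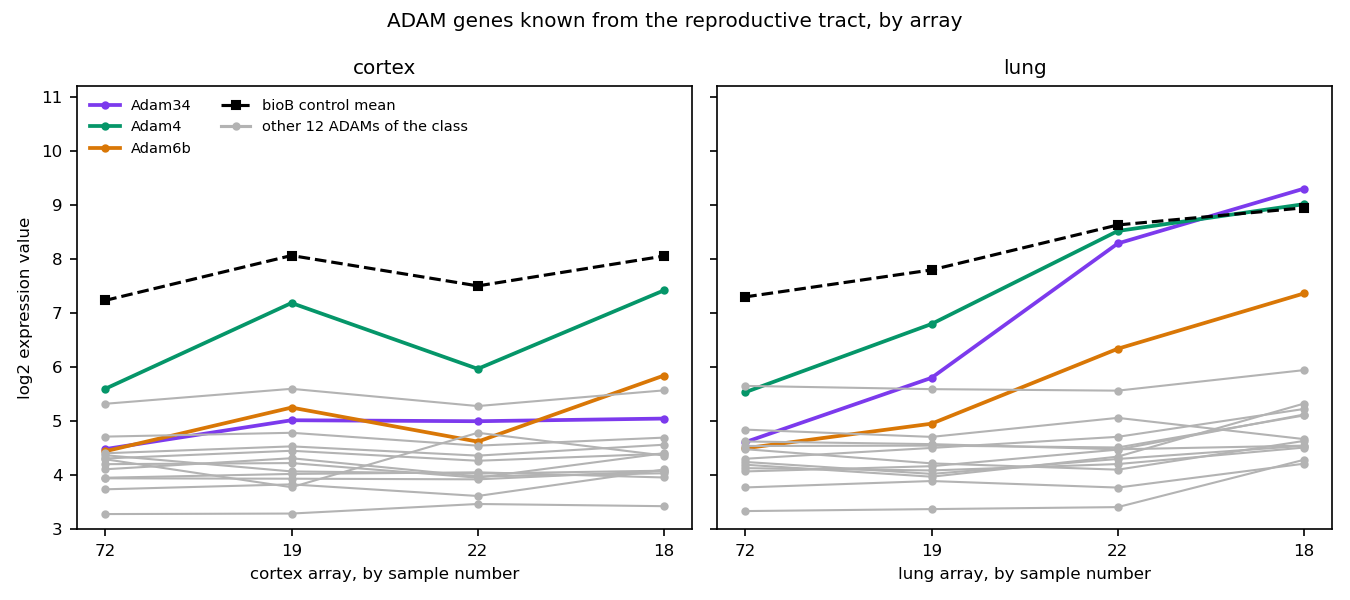
Log2 value on each array of the 15 measured ADAMs known from the reproductive tract, with the bioB hybridisation control mean dashed. Arrays are ordered by the bioB value in lung. Adam34 and Adam4 are higher along that order in lung and reach 9.30 and 9.01 on lung 18.

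Related genes were taken from lists of cofactors, other inhibitors, the plasminogen system, astacin proteases and substrates. Of 95 measured, 11 were called higher in cortex (beside 10.4% of all genes) and 24 in lung (beside 7.71%), with a median of -0.29. Under pan-endothelial scaling these counts turned to 30 and 9, beside 27.1% and 0.792% of all genes. The ADAM substrates Kdr, Tek, Tie1 and Cdh5 and the ADAMTS substrate Vwf are also in the pan-endothelial list. Part of their shift is therefore set by the scaling itself. Among 20 other inhibitors and pericellular regulators, 5 were higher in cortex and 4 in lung (median -0.08). Spock2, a proteoglycan of the testican family, was 49.8-fold higher in cortex (limma adjusted p = 4.15e-05), and Pcolce, the procollagen C-proteinase enhancer, was 7.42-fold higher in lung (limma adjusted p = 0.00121). Reck, a membrane inhibitor of MMPs chosen after its values were seen, was 2.91-fold higher in lung (limma adjusted p = 0.0109), without a call under pan-endothelial scaling (-0.34). Of 13 cofactors and maturation genes, 1 was higher in cortex (Tspan5, a tetraspanin that escorts Adam10, 2.98-fold, limma adjusted p = 0.0442) and 3 in lung, among them the proprotein convertase Pcsk5 (7.71-fold, limma adjusted p = 0.000231). The Tspan5 call was lost in 6 of the 8 fits that left out 1 array (those without cortex 72, 22, 19 or 18, or lung 22 or 18).

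Of 16 ADAMTS substrates, 2 were called higher in cortex and 8 in lung (median -1.51), and 5 and 4 under pan-endothelial scaling. The proteoglycan Ncan was 29.3-fold higher in cortex (limma adjusted p = 5.12e-05), and the collagen Col3a1, also a fibroblast marker here, was 18.6-fold higher in lung (limma adjusted p = 0.00288). Vegfc, which Adamts3 cuts, was 4.92-fold higher in lung, opposite to Adamts3 (limma adjusted p = 0.000312), and lost its call under that scaling (-1.10). Reln, also cut by Adamts3, differed by 2.30 (limma adjusted p = 0.0609). Of the collagen genes on the ADAMTS substrate list, Col2a1 was 10.0-fold higher in cortex (limma adjusted p = 0.000314), the direction of Adamts3. Col1a1, Col1a2, Col3a1 and Col5a1 were called higher in lung. Of 31 ADAM substrates, 2 were higher in cortex and 6 in lung (median -0.14). Under pan-endothelial scaling these counts were 12 and 0, beside 27.1% and 0.792% of all genes. The ADAM substrates included L1cam, a neural adhesion molecule 10.7-fold higher in cortex (limma adjusted p = 0.000651). They also included the protein C receptor gene Procr, 3.88-fold higher in lung (limma adjusted p = 0.0126), which lost its call under that scaling (-0.76). Without single arrays the counts of 2 and 6 ran from 2 to 5 and from 2 to 8. Lgi1, a ligand of Adam22, was 3.88-fold higher in cortex (limma adjusted p = 4.74e-05). Lgi2 was also called higher in cortex (1.44, limma adjusted p = 0.0233), while Lgi3 (-0.43) and Lgi4 (-0.22) had higher means in lung without a call. Vegfc, Reln, the LGI genes and the collagens other than Col3a1 were named after their values were seen. In the plasminogen system, 1 of 9 was higher in cortex (Serpini1, the neuronal inhibitor neuroserpin, 3.41-fold, limma adjusted p = 0.0141) and 2 in lung, led by S100a10, a receptor subunit for plasminogen (7.85-fold, limma adjusted p = 0.000206). Leaving out 1 array gave 1 to 2 and 2 to 3 there. Of 6 astacins, 0 were higher in cortex in limma (0 at an unadjusted p under 0.05), and Bmp1, a procollagen C-proteinase, was 1.85-fold higher in lung (limma adjusted p = 0.0103), turning to 0.31 under pan-endothelial scaling.

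The ranges of the tissues were apart for 6 members higher in cortex (12.5% of all genes) and 12 higher in lung (12.0%). The 14 called members were all among these 18. An exact two-sided permutation test over the 70 splits of the arrays gives 0.0286 by construction for each of the 18, the smallest value that 4 against 4 arrays allow, so it does not separate called from uncalled members. Of the 14 calls, 11 held in all 8 fits that left out 1 array, and the exceptions were Adamtsl3, Mmp14 and Adam15. Among called members, 9 had several probe sets, and 8 of their 13 other probe sets were called over all 34945 probe sets.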

How the data were processed

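The authors deposited log2 expression values of 45101 probe sets on Affymetrix Mouse Genome arrays. The submitters' processing notes name RMA, which normalizes arrays by quantiles, and the affy package. Their versions are not given in the sources used here. RMA compresses differences among low values, so folds of dim genes are understated, and every difference is relative to the rest of the array. Per the labels' protocols, 15 to 30 ng of RNA was linearly amplified (NuGEN) before hybridisation. The design text gives 4 litters, and each sample number occurs once per tissue, so same-numbered samples may share a litter. The labels do not say so, and the main model has no block for the number.

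Gene names came from the platform annotation, with 34945 of the 45037 probe sets that are not controls naming 1 gene, 932 several and 9160 none here. Gene numbers linked all 70 members to RefSeq's mouse table, and 0 symbols changed. The test was limma's moderated linear model (version 3.58.1, R 4.3.3; lmFit, then eBayes, tissue alone, two-sided, Benjamini-Hochberg over 18193 genes, call at an adjusted p under 0.05). The fit was tested on simulated data with 18193 genes: of 100 genes changed by 1 log2 unit 47 were called, of 100 changed by 2 units 82 were, and 11 calls were false. Per-array values are given for called members and all TIMPs. Named without a call were 7 further members listed by name, and of each related list the 2 called genes with the largest difference. The members and lists were chosen with earlier results of these data known. Agreement of same-numbered samples was checked by correlating their deviations from the tissue means (0.33 for number 72, -0.16 for 22, 0.01 for 19 and 0.31 for 18), and they were not taken as pairs. The planned split of ADAMs by a zinc-binding motif in the protein is not analysed here, nor are Mmp15 and Adamts2. Alternatives were 9 chosen at the start and 2 chosen after seeing the data.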

Additional observations from a re-analysis of the deposited data

Results flagged for a closer look

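In 4 of the 92 groups of 4 arrays examined, 1 array lay far from the other 3. Its gap to the nearest other array, divided by the whole range, was above Dixon's 95% critical value. Chance gives this in about 1 of 20 groups. Adamtsl3 in lung had a gap ratio of 0.859, with lung 72 at 5.82 and the others at 5.51 to 5.55. Adam11 in lung had a ratio of 0.855, with lung 18 at 7.45 and the others at 6.91 to 6.99. Serpini1 in lung had a ratio of 0.881, with lung 18 at 6.32 and the others at 7.31 to 7.45. The mean of the choroid plexus list in lung had a ratio of 0.933, with lung 18 at 6.73 and the others at 6.46 to 6.48.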

How the results depend on the processing

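Over 9 alternatives chosen at the start and 2 chosen after seeing the data, pan-endothelial scaling moved the most. It gave 15 members for cortex and 2 for lung (15 and 2 at 2-fold or more), 13 and 4 without overlap, 2 and 1 for MMPs, 5 and 1 for ADAMs, 6 and 0 for ADAMTS, 0 TIMPs in lung, and 30 and 9 related genes. The family medians became 0.98 (MMP), 0.96 (ADAM), 0.91 (ADAMTS), 1.11 (ADAMTS-like) and 0.50 (TIMP). Under it Adam15 (0.24), Adamts10 (0.44), Mmp14 (0.23), Timp2 (1.07), Timp4 (1.12), Adam10 (1.04), Adam17 (0.68) and Bmp1 (0.31) turned sign. All members had the same SE under this scaling, so its calls rest on the size of the difference alone.

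Elsewhere the family counts moved by 1 or 2 genes. Averaging probe sets gave 1 MMP in lung, 2 ADAMs in cortex and 2 TIMPs in lung, and turned Timp4 to 0.13. The most variable probe set gave 1 MMP in lung and 1 ADAMTS-like gene in cortex, with Timp4 at 0.33. A mean of at least 5 gave an ADAMTS-like median of 0.58. Centring on array medians gave 1 ADAMTS-like gene in cortex. Array weights gave 9 members at 2-fold or more in lung, 2 ADAMs and 2 ADAMTS in cortex, 2 TIMPs in lung and Adam9 at -0.11. A variance trend gave 2 ADAMTS and 1 ADAMTS-like gene in cortex. The sample number as a replicate block gave 6 members for cortex and 9 for lung, with 1 ADAM in lung, 2 ADAMTS and 1 ADAMTS-like gene in cortex and 2 TIMPs in lung, and Adam15 (adjusted p = 0.060), Adamtsl3 (0.058) and Tspan5 (0.088) lost their calls. Without both arrays numbered 18, 1 MMP was higher in lung and Adam9 was -0.10. With bioB as a covariate, 8 members were at least 2-fold higher in lung, with 2 ADAMs and 1 ADAMTS-like gene in cortex, 5 ADAMTS and 1 ADAMTS-like gene in lung, Adam9 at -0.16, and calls lost for Adamtsl3, Mmp14 and Tspan5. The causes of these moves were not tested.

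Leaving out 1 array at a time gave 5 to 8 members in cortex and 6 to 9 in lung (5 to 6 and 5 to 8 at 2-fold or more), 6 to 8 and 12 to 16 without overlap, 2 and 1 to 2 MMPs, 1 to 2 and 1 to 3 ADAMs, 1 to 3 and 3 to 4 ADAMTS, 1 to 2 and 0 ADAMTS-like genes, 0 and 1 to 2 TIMPs, and 8 to 16 and 20 to 27 related genes. Medians ran from -0.28 to -0.13 (MMP), -0.30 to -0.20 (ADAM), -0.43 to -0.14 (ADAMTS), -0.13 to -0.05 (ADAMTS-like) and -1.08 to -0.57 (TIMP). Differences that changed sign ran from -0.33 to 0.0074 (Adam10), -0.13 to 0.017 (Timp4), -0.48 to 0.078 (Timp2) and -0.21 to 0.51 (Adam9). Of 630 values of named genes, 551 kept direction and call, 44 lost a call, 15 gained one and 20 changed sign. Dim genes near the bacterial controls limit what can be measured.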

Other observations

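In the RefSeq gene order, 9 MMP genes lie next to another MMP gene (Mmp13, Mmp12, Mmp1b, Mmp3, Mmp1a, Mmp10, Mmp8, Mmp20 and Mmp7), and 0 of them were called in limma (0 at an unadjusted p under 0.05). Their differences ran from -0.78 to -0.02, and their means over all arrays from 3.46 to 6.61. Adamts1 (-2.34, called higher in lung) neighbours Adamts5, which differed by -0.88 and was not called. Adamts15 and Adamts8, also neighbours, differed by -0.98 and 0.58, and neither was called.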
